A study of Homo sapiens with 16 samples.

Results

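The messenger RNA response of 6T-CEM cells to a short hairpin RNA against SH2D1A was followed at day 10. The comparison holds 4 of the 16 libraries of the study: 2 of cells given sh-SH2D1A and 2 of cells given the control hairpin sh-NC. 6T-CEM is a cell line of human T-ALL, T-cell acute lymphoblastic leukaemia. The other libraries are 4 of the same line at day 5 and 4 each of Jurkat, another T-ALL line, at days 8 and 10, and each line and day has sh-NC libraries of its own. The event from which days are counted, the hairpin sequences and the means of their delivery beyond transfection are not stated in the labels used here. The labels also do not say whether the 2 libraries of an arm came from separate cultures, so p-values measure only the spread between libraries, which may be technical. All 64252 gene identifiers of the table belong to the comparison, and 19610 of them had enough counts to be tested.

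SH2D1A encodes SAP, a small adaptor made of little more than an SH2 domain. It binds the cytoplasmic tails of SLAM family receptors on T and natural killer (NK) cells and brings in the kinase FYN. Loss of SAP in humans causes X-linked lymphoproliferative disease, in which cytotoxic lymphocytes handle infected B cells poorly and natural killer T cells are missing. T-ALL cells resemble thymocytes halted during maturation, and so carry thymic genes such as the recombinase RAG1 beside adhesion receptors that govern homing.

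The day 10 sh-SH2D1A libraries held 30921714 and 31876720 counts, and the sh-NC libraries 28836423 and 31064535. Mitochondrially encoded genes took 6.13 to 6.55% of the counts in these 4 libraries. The first principal component carried 48.4% of the variance and placed the sh-SH2D1A libraries at 32.4 and 31.4 and the sh-NC libraries at -32.8 and -31.0. Levels below are counts scaled to library size (CPM), with library sizes adjusted by the trimmed mean of M values (TMM). A change is the fitted log2 ratio of knockdown to control, positive where sh-SH2D1A was higher, and ± gives its standard error (SE). The libraries carried the T cell markers CD3E and LCK at 378 to 471 CPM. CD4 stood at 5.21 and 5.15 CPM in sh-SH2D1A cells and 6.63 and 6.34 CPM in sh-NC cells, CD8A at no more than 3.34 CPM, and CD2 at no more than 2.67 CPM in any of the 4.

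Many genes moved and most moved little. With edgeR's quasi-likelihood test and Benjamini-Hochberg adjustment over all tested genes, 1296 genes rose (6.61% of those tested) and 1456 fell (7.42%) at an adjusted p under 0.05. Of these 2752 calls, 303 reached a 2-fold change, with 135 up and 168 down, and 1918 lay under 0.5 on the log2 scale. The median absolute change of a called gene was 0.33, and the median change of all tested genes was 0.00212. In every called gene both libraries of one arm lay above both of the other, which was also true of 11178 of the 19610 tested genes. The share called grew with the level of a gene, from 0.714% higher and 0.586% lower in the lowest quintile by mean CPM to 15.1% higher and 17.3% lower in the highest quintile. A fit that took its spread from all 16 libraries called 916 genes, 297 higher and 619 lower, and a fit with no filter on low counts called 1099.

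Direction also moved with base composition. Among genes in the lowest quintile by GC content of the longest transcript, 2.52% rose and 13.7% fell, while in the highest quintile 13.7% rose and 3.42% fell. The median change was -0.07 in the lowest GC quintile and 0.10 in the highest. Both sh-SH2D1A libraries stood above the 4-library mean in the highest GC quintile relative to the lowest, by 0.0998 and 0.0714 on the log2 scale, and both sh-NC libraries below it, at -0.0975 and -0.0713. Technical and biological sources of such a difference between arms cannot be told apart here. After a smooth in GC content was taken out of each library, an alternative chosen after seeing the data, 2751 genes of 18253 were called and 2135 of them were among the original calls, each in its original direction. The group counts below then became 13 higher and 3 lower for cytotoxic genes, 16 and 39 for adhesion, 26 and 51 for thymocyte genes, and 22 and 88 for metabolism, against 13 and 3, 19 and 36, 26 and 50, and 27 and 80 without it.

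**Figure D1:**
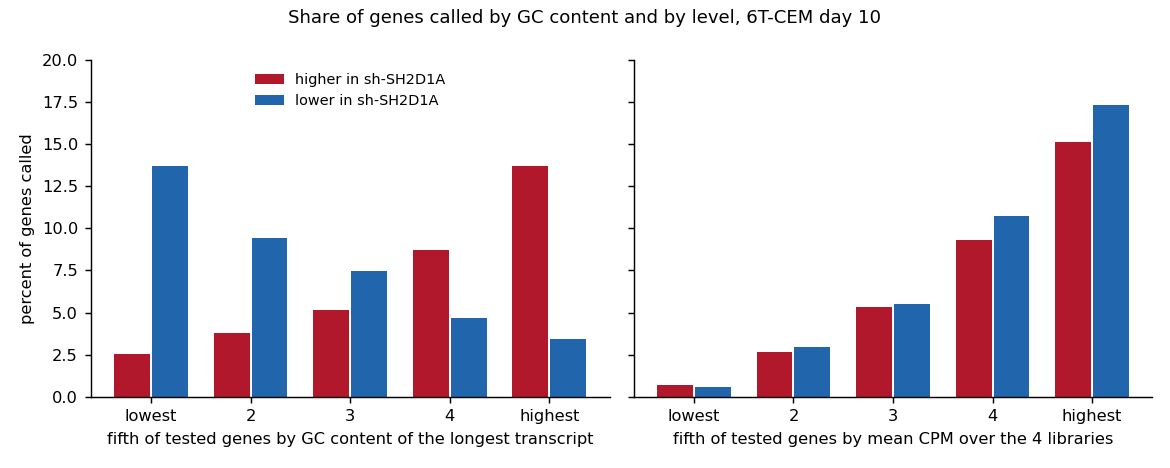
Percent of tested genes higher (red) and lower (blue) in sh-SH2D1A than in sh-NC cells at day 10, by quintile of GC content (left) and of mean CPM over the 4 libraries (right). In the lowest GC quintile 2.52% were higher and 13.7% lower, in the highest 13.7% and 3.42%; with rising level both shares grew.

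Gene lists were read against these shares of 6.61% higher and 7.42% lower. Lists were not matched for level, and in the highest quintile by mean CPM 15.1% of genes were higher and 17.3% lower. Among lists with at least 10 tested members, the largest share of rises was in the cytotoxic effector molecules, with 9 of 15 tested members higher and 2 lower, and the largest share of falls in the hypoxia response, with 13 of 23 lower and none higher. IFNG, among the 9 higher, had no counts in sh-NC libraries and passed the count filter through the sh-SH2D1A arm alone. HLA class I genes rose in 8 of 20. Integrins, homing receptors, annexins, T cell transcription factors, NOTCH genes, the T cell receptor complex, glycolysis and fatty acid synthesis each had 26.3 to 41.7% of their tested members lower. Nuclear subunits of the respiratory chain lay near the share of all genes, with 5 of 72 higher and 3 lower. Over 11 other settings of the fit, described under the processing, the counts ran from 7 to 14 higher and 2 to 3 lower for cytotoxic genes, 5 to 21 and 23 to 39 for adhesion, 14 to 30 and 35 to 54 for thymocyte genes, and 2 to 36 and 32 to 103 for metabolism. The lowest counts came with no filter on low counts or with all 16 libraries, and adhesion genes higher also came to 12 without sh-NC replicate 1, 11 without sh-NC replicate 2 and 12 without sh-SH2D1A replicate 2, and metabolic genes higher to 15 without sh-NC replicate 2.

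**Figure D2:**
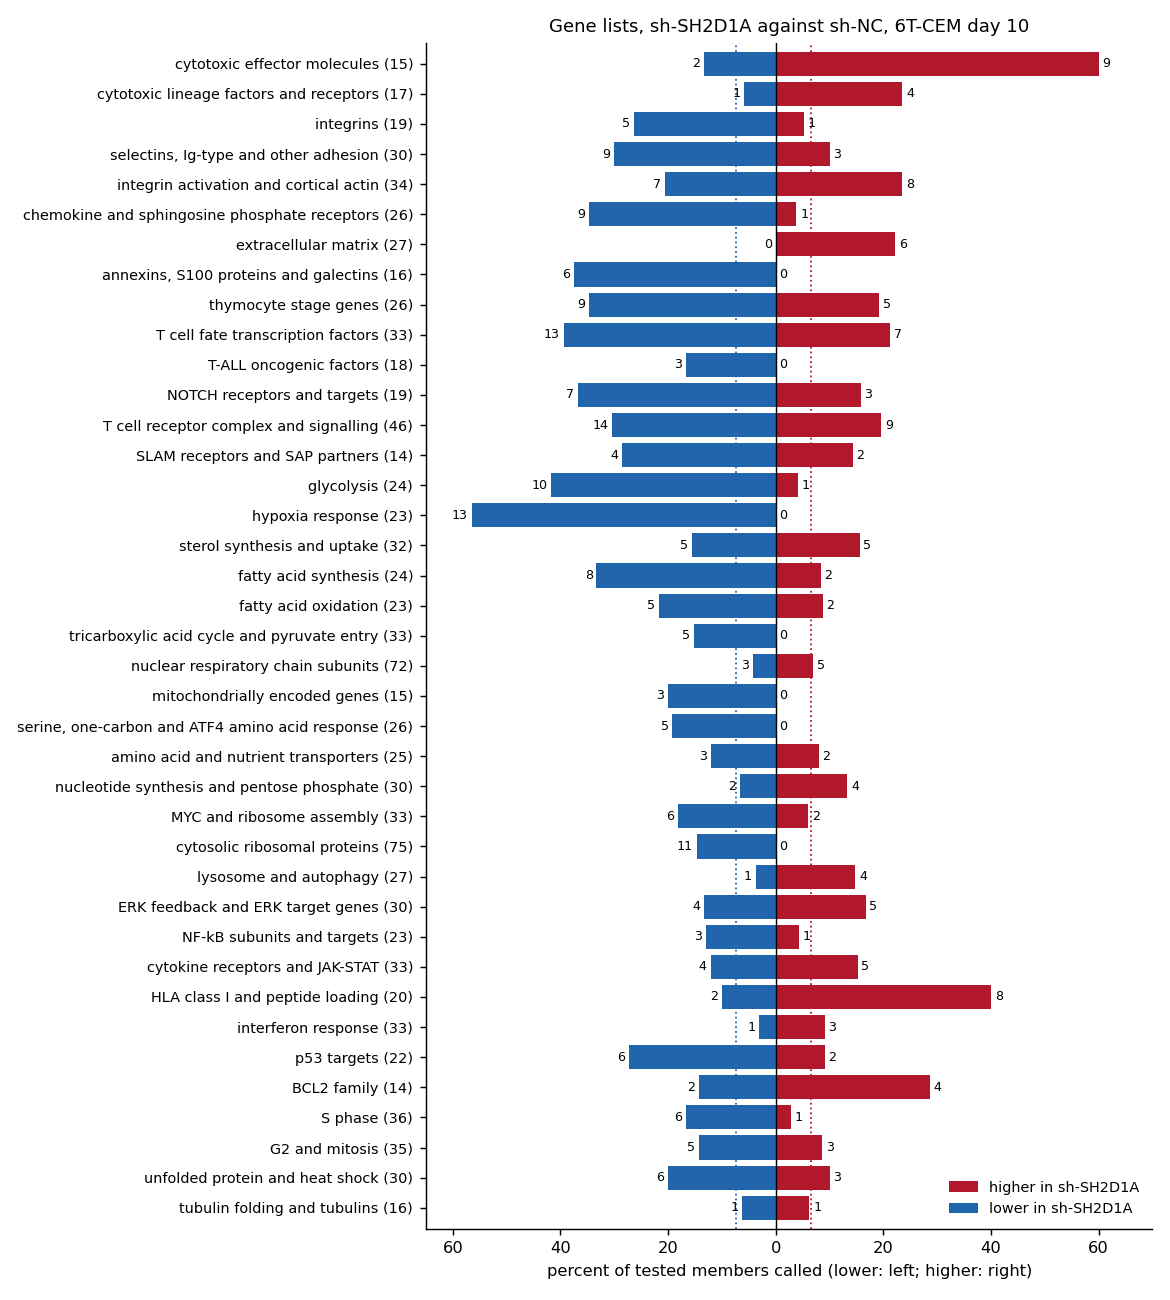
Share of the tested members of each gene list that was higher (red, to the right) or lower (blue, to the left) in sh-SH2D1A cells, with the number called at the bar's end and the number tested in parentheses. Dotted lines mark the shares of all tested genes, 6.61% higher and 7.42% lower; the longest bars are the 9 of 15 cytotoxic effector molecules that were higher and the 13 of 23 hypoxia genes that were lower.

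SH2D1A itself (chrX:124227868-124373197, plus strand, hg38) had 83.9 and 77.3 CPM in sh-SH2D1A cells, against 162 and 160 CPM in sh-NC cells. Both knockdown libraries lay below both controls, at a fold of 0.501 (edgeR adjusted p = 1.14e-05). In the annotation the gene overlaps STAG2 on the same strand, and STAG2 had 259 and 253 CPM against 284 and 286 CPM, a fall that missed the threshold without sh-NC replicate 2 (edgeR adjusted p = 0.0585) and with the GC offset, at -0.074 (edgeR adjusted p = 0.178). The fall of SH2D1A was 0.60 ± 0.11 smaller on the log2 scale than in Jurkat cells at day 10 (edgeR adjusted p of the difference 0.0276). CHI3L2, which encodes a secreted chitinase-like protein and stands in the title of the study, had 111 and 112 CPM in sh-SH2D1A cells and 215 and 211 CPM in sh-NC cells (-0.93 ± 0.03, edgeR adjusted p = 4.22e-06). CHI3L2 changed by -1.47 ± 0.12 at day 5 of 6T-CEM, and this difference between days did not pass. It lies opposite DENND2D (chr1:111200771-111243440 for CHI3L2), which had 8.07 and 6.30 CPM in sh-SH2D1A cells and 8.24 and 8.78 CPM in sh-NC cells and did not pass.

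SLAM receptors and the signalling partners listed with them moved in both directions. Of 14 tested members of this list, 2 rose and 4 fell. SLAMF7, an activating receptor of NK and cytotoxic T cells, had 6.79 and 6.71 CPM in sh-SH2D1A cells and 1.19 and 0.910 CPM in sh-NC cells, which is 2.68 ± 0.24 on the log2 scale (edgeR adjusted p = 0.000229). LY9 rose as well, by 0.87 ± 0.18, but not without sh-NC replicate 1 or sh-SH2D1A replicate 1 (edgeR adjusted p = 0.0549 and 0.0576). CD84, a self-binding SLAM receptor, had 36.1 and 33.0 CPM against 71.5 and 74.3 CPM and fell by 1.08 on the log2 scale, and SLAMF6 fell by 0.86. These 4 genes lie within one cluster on chromosome 1, so neighbours moved in opposite directions. INPP5D, the inositol phosphatase SHIP1, which can bind SLAM receptor tails in the absence of SAP, changed by -0.53 ± 0.08, and ARHGEF7, a guanine nucleotide exchange factor, by -0.23 ± 0.04.

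Of 32 tested cytotoxic lymphocyte genes, 13 rose and 3 fell, with a median change of 0.30, against 0.00212 for all tested genes. A gene could pass the count filter on either arm alone. IFNG, with no counts in sh-NC libraries, and KLRD1, at 0.209 and 0.0975 CPM in them, were tested only through the sh-SH2D1A arm. The count of rises is therefore not independent of the filter. Perforin and granzymes are the proteins by which NK and cytotoxic T cells kill, and EOMES is a T-box transcription factor that directs their expression. EOMES (chr3:27715949-27722711, minus strand) reached 293 and 292 CPM in sh-SH2D1A cells, against 63.1 and 66.0 CPM in sh-NC cells. That is a change of 2.18 ± 0.04, or 4.53-fold (edgeR adjusted p = 9.24e-08), and the only gene of the 24 with the largest folds that had more than 50 CPM in either arm. ID2, an inhibitor of E proteins needed by innate and effector lymphocytes, had 9.58 and 10.7 CPM in sh-SH2D1A cells and 2.79 and 3.32 CPM in sh-NC cells, or 1.73 ± 0.18.

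Granule genes followed at lower levels. GZMM, a granzyme of NK and innate-like T cells, had 24.96 and 25.1 CPM with sh-SH2D1A, against 5.69 and 6.79 CPM with sh-NC, a 4.003-fold change (edgeR adjusted p = 4.8e-05). GZMH had 9.81 and 12.1 CPM against 2.34 and 1.27 CPM (2.60 ± 0.28), and GZMK 5.95 and 5.08 CPM against 1.36 and 1.46 CPM (1.96 ± 0.23). PRF1, which encodes perforin, had 19.3 and 20.5 CPM against 11.7 and 11.4 CPM (0.78 ± 0.11). In all 4 genes the arms did not overlap, as in every called gene. Genes of granule packing and release moved with them: STX11, a syntaxin of granule fusion, rose by 1.30 ± 0.15, CST7, an inhibitor of granule proteases, by 0.64 ± 0.17, SRGN, the granule proteoglycan, by 0.39 ± 0.10, and UNC13D by 0.17 ± 0.04. The calls of CST7 and SRGN were lost without any 1 of the 4 libraries, at edgeR adjusted p = 0.0673 to 0.184 and 0.0756 to 0.185, and that of UNC13D without any but sh-SH2D1A replicate 2, at 0.0503 to 0.168. With the GC offset UNC13D came to 0.059 (edgeR adjusted p = 0.372). IFNG, also called, was counted 12 and 16 times in sh-SH2D1A libraries and never in sh-NC libraries. Against a floor of 3 counts per library it was at least 4.41-fold higher, a bound that covers counting error only, and its call too was lost without any library but sh-SH2D1A replicate 2, at edgeR adjusted p = 0.0602 to 0.0732.

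Not every cytotoxic gene rose. GZMA, the granzyme A gene, fell to 14.1 and 13.3 CPM in sh-SH2D1A cells, against 24.5 and 21.9 CPM in sh-NC cells (-0.76 ± 0.11). RAB27A, a GTPase of granule docking, fell by 0.46, though not without sh-SH2D1A replicate 1 (edgeR adjusted p = 0.0551), and CD226, the adhesion and activating receptor DNAM-1, had 18.2 and 19.4 CPM against 39.1 and 41.1 CPM. Receptors rose at the edge of detection, with KLRD1, the CD94 chain of NK receptors, at 1.58 and 2.12 CPM against 0.209 and 0.0975 CPM, and CRTAM at 2.25 and 1.31 CPM against 0.279 and 0.585 CPM. CRTAM was not called without sh-NC replicate 1 or sh-SH2D1A replicate 1 (edgeR adjusted p = 0.0616 and 0.119). GZMB, TBX21, PRDM1, NKG7, CD8A and RUNX3 did not pass, with changes of 1.09, 0.21, 0.79, 0.58, -0.14 and 0.01. Of the 24 effector genes listed, 9 were too low to test, among them FASLG and the chemokines CCL3, CCL4 and CCL5. The number of cytotoxic genes higher was 8, 9, 8 and 10 when each library was left out in turn, first those of sh-NC, and 7 with the spread of all 16 libraries. In bulk RNA, more cells that express a gene and more transcripts in each such cell cannot be told apart.

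**Figure D3:**
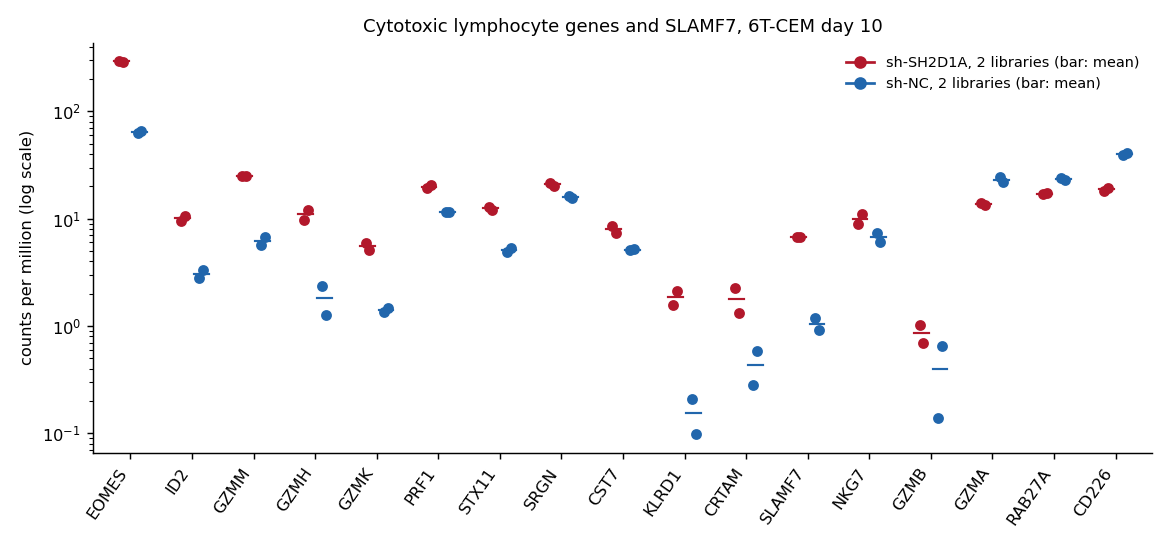
CPM of cytotoxic lymphocyte genes and SLAMF7 in each library at day 10 on a log axis, with sh-SH2D1A in red at the left of each pair and sh-NC in blue. Points are libraries and bars are means of 2; EOMES stands at 293 and 292 CPM with sh-SH2D1A and at 63.1 and 66.0 CPM with sh-NC, while GZMA, RAB27A and CD226 at the right run the other way.

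More adhesion and homing genes fell than rose. Of 152 tested members, 19 were higher and 36 lower, and the median change was -0.10. Integrins, paired receptors that hold cells to matrix and endothelium, accounted for 5 falls and 1 rise among 19. ITGA4, the alpha chain of VLA-4, which binds VCAM-1 and fibronectin, had 138 and 139 CPM in sh-SH2D1A cells and 310 and 310 CPM in sh-NC cells (-1.16 ± 0.03, edgeR adjusted p = 1.15e-06). The laminin receptor chain ITGA6 changed by -1.07 ± 0.12 and the collagen receptor chain ITGA1, which overlaps PELO, by -1.62 ± 0.14. ITGA5 fell by 0.50 and ITGAL, the alpha chain of LFA-1, by 0.36. ITGB1, the beta chain that pairs with ITGA1, ITGA4, ITGA5 and ITGA6, rose, at 228 and 236 CPM against 206 and 204 CPM, though not without sh-NC replicate 2 (edgeR adjusted p = 0.0522). The count of integrins lower was 5 under all 11 alternatives tried.

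KLF2, a transcription factor known to maintain S1PR1 in mature T cells, had 12.3 and 15.2 CPM in sh-SH2D1A cells and 31.5 and 35.7 CPM in sh-NC cells (-1.29 ± 0.12). S1PR1, the receptor by which lymphocytes leave thymus and nodes, had 5.82 and 7.05 CPM against 13.2 and 14.2 CPM (-1.09 ± 0.15). Both genes thus fell. Of 26 tested chemokine and sphingosine phosphate receptors and their partners, 9 fell, among them S1PR3 (-0.82 ± 0.06), P2RY8, a confining receptor of lymphocytes (-0.91 ± 0.06), CCR8 (-2.20 ± 0.34) and CX3CR1 (-1.75 ± 0.27), and RGS14 rose by 0.29 ± 0.06, though not without sh-NC replicate 2 or sh-SH2D1A replicate 2 (edgeR adjusted p = 0.078 and 0.086) and not with the GC offset, at 0.19 (edgeR adjusted p = 0.0842).

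Other surface molecules fell by smaller amounts. PECAM1 had 55.5 and 56.0 CPM in sh-SH2D1A cells and 90.3 and 94.6 CPM in sh-NC cells, the immunoglobulin-type protein EMB 74.8 and 67.9 against 116 and 126 CPM, and CD47, the signal that restrains phagocytes, 311 and 332 against 434 and 423 CPM. L1CAM, a neural cell adhesion molecule, went the other way, with 7.33 and 7.05 CPM against 1.71 and 1.79 CPM (2.04 ± 0.20). In the cell cortex the picture was mixed, with 8 of 34 higher and 7 lower. FERMT3, the kindlin that activates integrins in blood cells, rose by 0.39 ± 0.03, whereas FYB1, the adaptor ADAP, fell by 0.50 on the log2 scale.

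Annexins, S100 proteins and associated cytoskeletal genes fell in 6 of 16 and rose in none. ANXA1, a calcium-dependent membrane-binding protein, had 1.45 and 1.53 CPM in sh-SH2D1A cells and 9.95 and 10.5 CPM in sh-NC cells (-2.77 ± 0.19). VIM, the intermediate filament vimentin, had 442 and 448 CPM against 596 and 605 CPM, and the scaffold AHNAK changed by -0.71 ± 0.09. Extracellular matrix genes went the other way, in 6 of 27 with none lower. VCAN, the proteoglycan versican, had 29.9 and 36.7 CPM with sh-SH2D1A and 12.8 and 13.1 CPM with sh-NC (1.36 ± 0.12), MFAP4 27.4 and 28.7 against 15.1 and 15.1 CPM, and ELN, elastin, 6.56 and 4.84 against 1.92 and 1.63 CPM. The arms did not overlap in any of these 3, which was so for every called gene and for 11178 of the 19610 tested genes.

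Thymocyte genes were the most often called of the 4 programmes in the downward direction, with 26 of 156 higher and 50 lower and a median change of -0.13. The 2 recombinase genes rose. RAG1 had 161 and 166 CPM in sh-SH2D1A cells and 64.9 and 62.9 CPM in sh-NC cells (1.35 ± 0.04, edgeR adjusted p = 1.78e-06), and RAG2 26.0 and 20.3 against 13.7 and 12.8 CPM. The genes overlap on opposite strands, and without a stated strand setting their reads cannot be fully told apart. IGLL1, the surrogate light chain, had 40.3 and 41.3 CPM against 146 and 150 CPM (-1.86 ± 0.04, edgeR adjusted p = 5.78e-07). CD38 fell by 1.14 on the log2 scale, DNTT, the terminal transferase that acts beside RAG in thymocytes, by 1.44, and CD7 and CD1A by 0.74 and 0.47. TRIB2 (0.45 ± 0.06), ARPP21 (0.35 ± 0.04) and IL7R (0.89 ± 0.19) rose, IL7R not without sh-NC replicate 2 or sh-SH2D1A replicate 1 (edgeR adjusted p = 0.0748 and 0.0692).

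**Figure D4:**
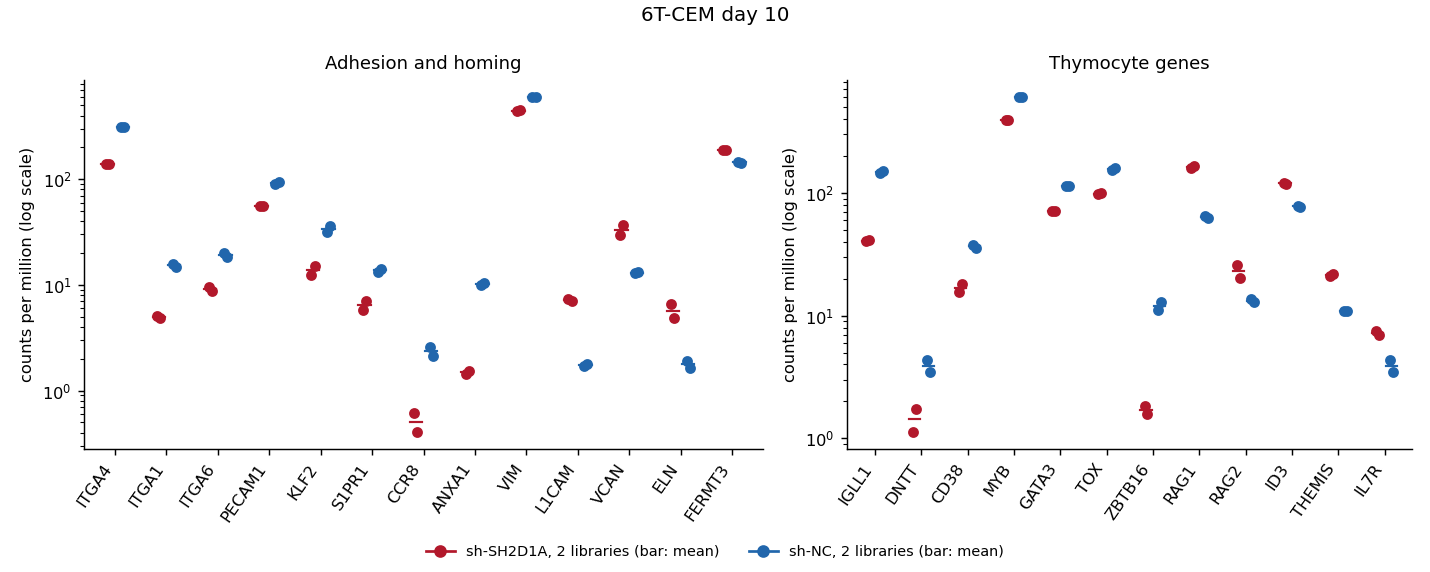
CPM of adhesion and homing genes (left) and thymocyte genes (right) in each day 10 library on a log axis, with sh-SH2D1A in red at the left of each pair and sh-NC in blue; bars are means of 2 libraries. ITGA4, IGLL1 and MYB are lower with sh-SH2D1A, L1CAM, VCAN and RAG1 higher, and no pair of arms overlaps, as in every called gene.

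Transcription factors that set T cell fate fell in 13 of 33 and rose in 7. MYB, a factor required through thymic development, had 390 and 390 CPM in sh-SH2D1A cells and 601 and 611 CPM in sh-NC cells (-0.63 ± 0.03, edgeR adjusted p = 8.84e-06). GATA3 had 71.5 and 71.9 CPM against 113 and 113 CPM, and TOX 97.3 and 99.5 against 154 and 160 CPM. ZBTB16, the factor PLZF of natural killer T and other innate-like T cells, had 1.83 and 1.59 CPM against 11.2 and 12.9 CPM (-2.81 ± 0.19). It fell while ID2 and EOMES, also genes of innate-like lymphocytes, rose. ID3, which like ID2 restrains E proteins, rose by 0.62 ± 0.04, at 121 and 119 CPM against 78.8 and 77.0 CPM. RUNX1, ETS1, LEF1, FLI1 and SOX4 fell, by 0.19 to 0.32, and NR3C1, the glucocorticoid receptor, rose by 0.36 ± 0.07.

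Of 18 tested T-ALL oncogenic factors 3 fell and none rose. TAL1, a leading oncogene of T-ALL, had 155 and 164 CPM in sh-SH2D1A cells and 224 and 228 CPM in sh-NC cells (-0.50 ± 0.04), and MYCN 8.65 and 14.1 against 30.0 and 28.9 CPM. NKX2-1 changed by -1.28 ± 0.27, but not past the threshold without sh-NC replicate 2 or sh-SH2D1A replicate 2 (edgeR adjusted p = 0.0541 and 0.0594). NOTCH receptors split: NOTCH1, mutated in many T-ALL, changed by -0.36 ± 0.05, NOTCH2 by -0.37 ± 0.05 and NOTCH3 by 0.65 ± 0.06. ADAM10, the protease that opens NOTCH to cleavage, fell by 0.46 on the log2 scale, and the coactivator MAML1 rose by 0.51. The target genes HES1 and NRARP did not pass, at -1.15 ± 0.40 and 0.86 ± 0.27.

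The T cell receptor complex changed unevenly, with 14 of 46 lower and 9 higher. TRAC, the constant region of the alpha chain, had 41.8 and 36.8 CPM in sh-SH2D1A cells and 65.8 and 66.1 CPM in sh-NC cells (-0.75 ± 0.07). CD3D changed by -0.47 ± 0.04 and CD247, the zeta chain, by -0.41 ± 0.06, while CD3E did not pass at -0.08 ± 0.03. The near-identical beta constant genes TRBC1 and TRBC2 are uncertain, and TRBC1 had 93.3 and 32.8 CPM in the sh-SH2D1A libraries, against 119 and 117 CPM. The adaptor GRAP2 (-0.63 ± 0.07) and CD5, a brake on receptor signals, (-0.62 ± 0.08) fell. THEMIS, a thymocyte selection protein, had 20.9 and 21.8 CPM against 10.9 and 10.9 CPM (0.98 ± 0.11), the costimulator CD28 21.8 and 24.6 against 13.1 and 14.9 CPM, and the phosphatase gene PTPRC, CD45, rose by 0.28 ± 0.03.

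Of 462 tested metabolic genes 27 were higher (5.84%) and 80 lower (17.3%), and the median change was -0.04. The shares were 6.61% and 7.42% over all tested genes, and 15.1% and 17.3% in the highest quintile by mean CPM. Glycolysis and the hypoxia response had the largest shares of falls among the metabolic lists. In glycolysis 10 of 24 fell and 1, PGAM1, rose. LDHA, lactate dehydrogenase A, had 591 and 579 CPM in sh-SH2D1A cells and 787 and 798 CPM in sh-NC cells (-0.44 ± 0.03, edgeR adjusted p = 4.69e-05), and the aldolase gene ALDOC 8.14 and 8.17 against 20.4 and 21.4 CPM (-1.36 ± 0.11). GAPDH, ENO1 and PKM each fell by between 0.21 and 0.24, and the glucose transporter gene SLC2A3 by 0.80, though not without sh-NC replicate 2 or sh-SH2D1A replicate 2 (edgeR adjusted p = 0.051 and 0.0789). In the hypoxia response 13 of 23 fell and none rose. CA9, a carbonic anhydrase induced by low oxygen, had 0.386 and 0.374 CPM against 2.06 and 2.41 CPM, and PDK1, which holds pyruvate back from the mitochondrion, had 19.9 and 17.7 CPM against 35.0 and 33.8 CPM (-0.87 ± 0.09). HIF1A itself changed by -0.25 ± 0.04, and by -0.16 with the GC offset. The 13 became 7, 9, 8 and 10 as each library was left out, 5 with the spread of all 16 libraries and 2 without a filter on low counts.

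Because ACGTG is a form of the core bound by hypoxia-inducible factors, the promoters of these genes were read for it. RefSeq promoters of build GRCh38.p14, from 250 bases before to 50 after the start, were searched for ACGTG and, for the other strand, CACGT, so a CACGTG palindrome counts as 2 matches. Of the 23 members of the glycolysis and hypoxia lists that fell, 20 had a promoter in the table, and 15 of these held the core. Among the other tested members of those lists it was in 5 of 20, and among all 27305 promoters in 21.6%. A match is a description of letters and not a bound site. Members were listed for glycolysis or the response to low oxygen, so a larger share than over all promoters was no test. Whether hypoxia-inducible factors took part in the falls was not tested. The promoters of LDHA, ALDOC and CA9 are shown because these genes carry the most secure or the largest falls, with matches in capitals. They lie at chr11:18394313-18394612 on the plus strand, chr17:28576846-28577145 on the minus strand and chr9:35673678-35673977 on the plus strand, and hold 5, 3 and 1 matches.
LDHA: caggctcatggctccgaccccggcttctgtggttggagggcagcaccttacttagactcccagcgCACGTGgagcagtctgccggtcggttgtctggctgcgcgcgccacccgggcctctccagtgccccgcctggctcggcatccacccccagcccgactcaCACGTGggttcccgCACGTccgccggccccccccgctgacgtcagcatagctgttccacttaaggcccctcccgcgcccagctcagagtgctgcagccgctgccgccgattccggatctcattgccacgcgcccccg
ALDOC: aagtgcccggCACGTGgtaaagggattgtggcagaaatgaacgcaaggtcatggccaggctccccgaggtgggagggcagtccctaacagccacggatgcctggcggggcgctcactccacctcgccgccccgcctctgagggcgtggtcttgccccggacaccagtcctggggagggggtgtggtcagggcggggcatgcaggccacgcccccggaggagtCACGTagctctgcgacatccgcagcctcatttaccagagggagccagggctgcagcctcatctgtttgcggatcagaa
CA9: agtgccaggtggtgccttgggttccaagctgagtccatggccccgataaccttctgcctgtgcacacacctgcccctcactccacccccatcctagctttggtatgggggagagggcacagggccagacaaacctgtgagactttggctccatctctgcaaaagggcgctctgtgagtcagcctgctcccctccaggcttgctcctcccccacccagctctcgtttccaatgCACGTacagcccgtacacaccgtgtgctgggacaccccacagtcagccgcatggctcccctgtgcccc
No match to ACGTG or CACGT was found in the promoters of PDK1, ENO1, PKM, TPI1 and HIF1A. The other form of the core, GCGTG, was not searched. The T-box core AGGTGT, searched with its complement ACACCT for EOMES, was in none of 6 matched promoters of the 13 cytotoxic genes that rose, in 1 of 14 of the others and in 11.4% of all. The CCACCC box bound by KLF factors, searched with GGGTGG, was in 5 of 14 matched promoters of the 23 integrins, selectins and other adhesion molecules and homing receptors that fell, in 22 of 38 of the others and in 33.4% of all.

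In lipid metabolism, fatty acid synthesis had 8 of 24 lower and 2 higher, and sterol synthesis and uptake 5 lower and 5 higher of 32. SCD, the desaturase that makes monounsaturated fatty acids, had 414 and 440 CPM in sh-SH2D1A cells and 603 and 611 CPM in sh-NC cells (-0.51 ± 0.03). The desaturase FADS2 changed by -0.57 ± 0.03, though it overlaps FADS1 and FEN1, and the elongase ELOVL5 by -0.50 ± 0.04. INSIG1, which retains the sterol sensor in the endoplasmic reticulum and is itself a sterol-regulated gene, had 198 and 196 CPM against 341 and 338 CPM (-0.78 ± 0.03, edgeR adjusted p = 5.61e-06). Other sterol genes split: FDFT1 fell by 0.27, and NR1H2, the oxysterol receptor LXR beta, rose by 0.57 ± 0.06. In fatty acid oxidation CPT1A, the gate to the mitochondrion, fell by 0.43 and ACADM by 0.53.

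Most genes of mitochondrial metabolism and related enzymes moved little. Of 33 genes listed for the tricarboxylic acid cycle and pyruvate entry, some for cytosolic enzymes such as IDH1, 5 fell. SDHD (-0.57 ± 0.05) and IDH1 (-0.51 ± 0.07) were among them, and of 15 mitochondrially encoded genes 3 fell, by 0.13 to 0.26. Among nuclear respiratory chain subunits NDUFA1 had 10.2 and 12.4 CPM with sh-SH2D1A and 26.4 and 26.8 CPM with sh-NC, and NDUFA3 changed by 1.72 ± 0.27. Both overlap a gene on the other strand. Cytosolic ribosomal proteins fell in 11 of 75 and rose in none, by no more than 0.20, and that count was 3 without sh-NC replicate 2, 6 without sh-SH2D1A replicate 2 and 1 without a filter on low counts. The share of ribosomal protein genes lower was 14.7%, beside 7.42% of all tested genes and 17.3% in the highest quintile by mean CPM. The glutamine transporter gene SLC38A2 (-0.58 ± 0.03), the spermidine synthase gene SRM (-0.53 ± 0.04) and RPE, of the pentose phosphate pathway, (-0.70 ± 0.07) fell.

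Genes of antigen presentation by HLA class I rose more often than they fell. Of 20 tested members 8 were higher and 2 lower, with a median of 0.29. HLA-B had 133 and 132 CPM in sh-SH2D1A cells and 81.2 and 80.3 CPM in sh-NC cells (0.71 ± 0.04, edgeR adjusted p = 2.04e-05), and HLA-C rose by 0.58 ± 0.05. These are closely similar genes whose reads the counting may have shared. B2M, the common light chain, which has no such copy, had 284 and 275 CPM against 221 and 207 CPM (0.38 ± 0.04). NLRC5, the transactivator of class I genes, had 63.9 and 63.7 CPM against 35.5 and 36.6 CPM (0.82 ± 0.06), and TAP1, a peptide transporter subunit, rose by 0.80 ± 0.22, though not without sh-NC replicate 1 or sh-SH2D1A replicate 1 (edgeR adjusted p = 0.104 and 0.219). CALR, the chaperone calreticulin, had 1006 and 983 CPM with sh-SH2D1A and was lower than with sh-NC by 0.48 on the log2 scale.

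IRF9, a transcription factor that carries interferon signals, had 10.5 and 9.23 CPM in sh-SH2D1A cells and 3.53 and 3.84 CPM in sh-NC cells (1.42 ± 0.17). Of 33 tested interferon response genes 3 rose, IRF9, IRF1 (0.23 ± 0.06) and ISG15 (0.37 ± 0.10), and OAS3 fell. Without sh-SH2D1A replicate 2 IRF9 alone was called as higher. IRF1 and ISG15 were also not called without sh-NC replicate 1 (edgeR adjusted p = 0.0992 and 0.145), nor IRF1 without sh-NC replicate 2 (0.0996) or ISG15 with the GC offset (0.0926). The cytokine receptor gene IL21R (1.83 ± 0.33) and the repressor BCL6 (1.11 ± 0.12) rose, and STAT5A had 1.90 and 2.68 CPM against 8.59 and 7.57 CPM (-1.82 ± 0.22). NFKB1, which encodes the p105 and p50 subunits of NF-kB, had 29.1 and 31.2 CPM against 69.3 and 75.6 CPM (-1.26 ± 0.07), and TNFAIP3, a brake on that pathway, fell by 0.78. Among ERK target genes ETV5 (-1.42 ± 0.15) and CD69 (-1.65 ± 0.24) fell while EGR2 (2.30 ± 0.39) and JUN (0.73 ± 0.09) rose.

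For survival genes, BCL2 had 31.1 and 32.0 CPM in sh-SH2D1A cells and 71.4 and 69.3 CPM in sh-NC cells (-1.16 ± 0.06, edgeR adjusted p = 1.47e-05). MCL1, another inhibitor of apoptosis, fell by 0.38, and BMF, which opposes both, rose by 0.75 ± 0.11. Of 22 p53 targets, 2 rose and 6 fell, among them PMAIP1 (-0.67 ± 0.09). Cell cycle genes changed little, with 1 of 36 S phase genes higher and 6 lower and 3 of 35 mitotic genes higher and 5 lower, none by more than 0.41. TBCA, a tubulin folding cofactor, stood apart from the other 15 tubulin genes tested, at 23.5 and 26.5 CPM against 71.6 and 74.9 CPM (-1.55 ± 0.07).

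Among the 12 largest rises with a mean of at least 1 CPM were KLRD1, SLAMF7, GZMH and EOMES, described above, and RAPH1, an actin regulator, at 5.24 and 8.02 CPM in sh-SH2D1A cells and 0.768 and 0.650 CPM in sh-NC cells (3.22 ± 0.30). SAMD3 (3.09 ± 0.32), B3GALT5 (2.53 ± 0.23), TC2N (2.44 ± 0.20), TGFBR3, a coreceptor of TGF-beta, (2.44 ± 0.36), EGR2, SERTAD4BP (2.26 ± 0.38) and UPK3BL1 completed them, the last at 1.58 and 6.24 CPM and not called without sh-SH2D1A replicate 2 (1.09, edgeR adjusted p = 0.162). Among the 12 largest falls were ZBTB16, ANXA1, CA9 and CCR8, described above, and ADCYAP1, the neuropeptide PACAP, at 1.06 and 1.40 CPM against 7.71 and 7.87 CPM (-2.65 ± 0.23). PI16 (-2.19 ± 0.12) and CEBPE, a myeloid transcription factor, (-2.15 ± 0.09) had higher levels, CEBPE with 9.23 and 8.86 CPM against 41.0 and 39.1 CPM. CHST1, GPR17, SLC6A20 and IGSF10 fell by 1.93 to 2.43, and PVRIG2P, which fell most, overlaps PILRB and is uncertain.

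Genes at high levels changed by smaller amounts. In the highest quintile by mean CPM 591 rose and 680 fell. Among the 12 called genes of highest mean CPM that changed by at least 0.5, MYO7B, an unconventional myosin, had 370 and 377 CPM in sh-SH2D1A cells and 696 and 707 CPM in sh-NC cells (-0.91 ± 0.03), and TOP2B, topoisomerase II beta, 272 and 284 against 520 and 510 CPM (-0.89 ± 0.03). HNRNPA1, STT3B, GRK3, BAHCC1, SPTBN1, VAT1 and GNAQ fell by 0.50 to 0.71, beside SCD and MYB. Read-through genes, which join 2 neighbours, were called in 7 of 53 tested, 3 higher and 4 lower, near the 14% called of all tested genes. Their counts depend on how reads of the joined genes were assigned. BIVM-ERCC5 was counted 784 and 1357 times in sh-SH2D1A libraries and 0 times in both sh-NC libraries. Against a floor of 3 counts per library it was at least 337-fold higher, a bound that covers counting error only and not read assignment. Its call was lost with all 16 libraries in the fit (edgeR adjusted p = 0.108).

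Day 5 and Jurkat cells have their own sh-NC libraries, and the change at day 10 was tested against theirs. Of the genes called here, 315 were also called in 6T-CEM at day 5, which is 11.5% of the day 10 calls and 77% of the day 5 calls, and 313 had the same direction. The figures were 393 for Jurkat at day 10, 14.6% and 55.7%, with 349 the same, and 1002 for Jurkat at day 8, 37.1% and 42.3%, with 926 the same. Of all genes tested here, 14% were called. The other comparisons called 409 of 18499 genes tested in both, 706 of 18226 and 2366 of 18397, in the same order. Over all genes tested in both, called or not, 64.1, 60.7 and 62.8% had the same sign. Pearson correlations of the changes across those genes were 0.29, 0.23 and 0.20. Among 17521 genes tested in every line and day, 137 were called in all 4 comparisons in 1 direction, 21 higher and 116 lower. RAG1, MFAP4 and TRIB2 were among those higher, and SH2D1A, CHI3L2, IGLL1, TBCA, NFKB1, BCL2, ETV5, ALDOC, PDK1, INSIG1, SCD and the GTPase gene NRAS among those lower. The difference between day 10 and day 5 passed for 1 gene of 20978 (0.00477%), although 2157 had an unadjusted p under 0.05 and the DESeq2 Wald test called 218. The 2 day 5 sh-SH2D1A libraries differed from each other by a chi-square of 24.6 for each degree of freedom over genes, while the day 10 pairs differed by 5.48 for sh-SH2D1A and 5.01 for sh-NC, and without the first of them the edgeR count was 1476.

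That gene was CDHR1, a photoreceptor cadherin. It had 33.96 and 34.3 CPM in sh-SH2D1A cells and 13.2 and 12.9 CPM in sh-NC cells at day 10, a change of 1.39 ± 0.09, against -1.03 ± 0.14 at day 5, a difference of 2.43 ± 0.15 (edgeR adjusted p = 0.00068). SLAMF7 (2.68 ± 0.24 at day 10 and -0.22 ± 0.39 at day 5) and GZMM (4.003-fold at day 10 and -0.10 ± 0.33 on the log2 scale at day 5) differed by 2.92 and 2.11, with edgeR adjusted p = 0.108 and 0.111, so the difference was not shown. EOMES, by contrast, was called on both days, at 2.18 ± 0.04 and 1.92 ± 0.14.

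The change in 6T-CEM differed from that in Jurkat at day 10 for 358 of 20770 genes (1.72%), above 0 for 156 and below 0 for 202. The count was 26 of 156 for adhesion genes and 26 of 156 for thymocyte genes, 17 of 144 for signalling genes, 3 of 33 for cytotoxic genes, 21 of 463 for metabolic genes and 3 of 153 for growth genes. The 3 cytotoxic genes were EOMES, ID2 and GZMM, all above 0. EOMES changed by 2.18 ± 0.04 in 6T-CEM and 0.09 ± 0.24 in Jurkat, a difference of 2.08 ± 0.16 (edgeR adjusted p = 0.000181). In Jurkat at day 8 EOMES rose too, by 0.78 ± 0.18 (edgeR adjusted p = 0.0274). HLA class I genes changed in opposite directions: HLA-B by 0.71 ± 0.04 in 6T-CEM and -1.17 ± 0.10 in Jurkat, NLRC5 by 0.82 ± 0.06 and -0.76 ± 0.10, and B2M by 0.38 ± 0.04 and -0.58 ± 0.08 (edgeR adjusted p of the differences 5.94e-05, 0.00018 and 0.000286). At day 5 of 6T-CEM HLA-B stood at -0.70 ± 0.17 and NLRC5 at -0.32 ± 0.22, neither past the threshold.

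Among adhesion genes, ITGA4 changed by -1.16 ± 0.03 in 6T-CEM and -0.09 ± 0.08 in Jurkat, and ANXA1 by -2.77 ± 0.19 and -1.44 ± 0.09, and each difference passed (edgeR adjusted p = 0.000197 and 0.00181). VCAN rose in both, by 1.36 ± 0.12 in 6T-CEM and by 2.94 ± 0.30 in Jurkat, a difference of -1.58 ± 0.26. Among thymocyte genes, IGLL1 changed by -1.86 ± 0.04 in 6T-CEM and -0.49 ± 0.10 in Jurkat, MYB by -0.63 ± 0.03 and 0.12 ± 0.07, and RAG1 by 1.35 ± 0.04 and 2.11 ± 0.14. LDHA, ALDOC and SCD, with differences of -0.15, -0.13 and 0.02, did not pass. The count of differing genes was 109, 128, 119 and 152 when the 6T-CEM day 10 libraries were left out in turn, first those of sh-NC, and 721 with the DESeq2 Wald test.

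**Figure D5:**
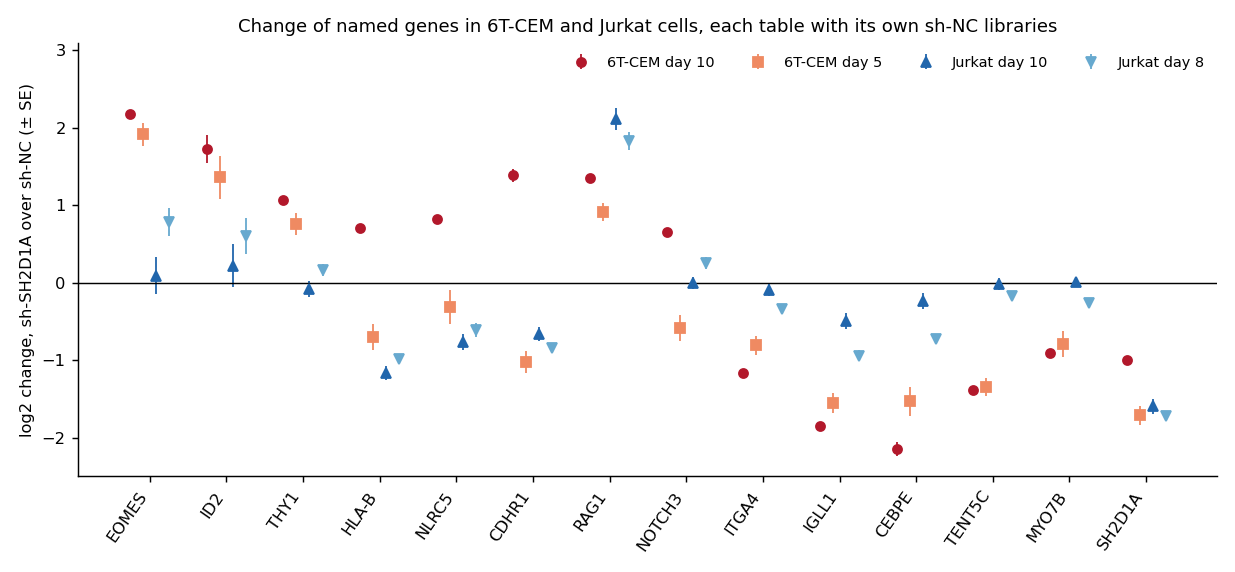
Log2 change between sh-SH2D1A and sh-NC cells, with its standard error, for 14 genes in 6T-CEM at days 10 and 5 and Jurkat at days 10 and 8, each from its own 2 libraries per arm. HLA-B, NLRC5 and CDHR1 lie above 0 at day 10 in 6T-CEM and below 0 in the other 3 tables, while EOMES lies above 0 in 6T-CEM on both days and in Jurkat at day 8, and ITGA4 and CEBPE lie lower in 6T-CEM than in Jurkat.

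Markers of other cell types were sparse and are given beside the results. Of 10 B cell markers 3 could be tested and 2 fell, with summed levels of 32.5 and 28.1 CPM in sh-SH2D1A libraries and 47.9 and 46.7 CPM in sh-NC libraries. CD79A, which T-ALL cells can carry, made up most of it, at 29.2 and 25.8 against 43.7 and 42.7 CPM. The other gene that fell, CD79B, was at 1.22 and 1.34 against 2.86 and 2.60 CPM and was not called without any 1 of the 4 libraries (edgeR adjusted p = 0.0544 to 0.0983). Of 12 myeloid markers 6 could be tested and none passed, and their sum was 14.1 and 13.4 against 13.2 and 6.86 CPM. Of 12 erythroid markers 5 could be tested and 2 rose, the near-identical HBA1 and HBA2, at no more than 2.81 CPM and HBA2 not without any 1 of the libraries (edgeR adjusted p = 0.0574 to 0.161) or with the GC offset (0.0537), with sums of 19.9 and 18.4 against 17.8 and 18.7 CPM. Epithelial and packaging cell markers summed to 31.4 and 28.1 against 39.7 and 35.4 CPM, with 1 of 5 tested lower. Their part in the results above was not tested.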

How the data were processed

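Per the labels, TRIzol RNA was made into libraries with an Illumina TruSeq kit. HISAT2 2.2.0, StringTie and hg38 appear among the submitters' processing notes, without roles. The deposited values are whole-number counts per Ensembl gene, not normalised. How the authors counted, with which annotation release and strand setting, is not given in the sources used here; counts made by StringTie would be coverage estimates, rounded. In R 4.3.3 with edgeR 4.0.16, genes were filtered with filterByExpr (minimum count 10), scaled by TMM and tested with glmQLFit and glmQLFTest; p-values were adjusted over all tested genes by Benjamini-Hochberg. The SE is the absolute log2 change over the square root of F. Differences between days and lines were fitted on 8 libraries with 4 group means. Gene positions and overlaps come from GENCODE 29, GC content from the longest transcript and promoters from RefSeq. The procedure was tested on simulated data. Named genes were SH2D1A, CHI3L2, the 12 largest rises and falls with a symbol, at least 1 CPM and separate arms (read-through genes apart), 5 members of each of 43 lists with the lowest adjusted p and others a sentence needed, the 12 highest called genes past 0.5, and 6 genes per direction of each difference. NRAS, the overlapping genes and those from other lines were named after their values were seen. The members, lists and rules were chosen with earlier results of these data known. Alternatives were DESeq2 1.42.0 size factors and its Wald test, no filter, at least 10 counts in every library of an arm, a block for the replicate number, a fit to all 16 libraries, a GC offset added after seeing the data, and each library left out. Replicate numbers were not taken as pairs. A few genes that these rules name are not reported here.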

Additional observations from a re-analysis of the deposited data

Results flagged for a closer look

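For 1 gene the change at day 10 of 6T-CEM differed from that at day 5 by the edgeR test of the difference: CDHR1 changed by 1.39 ± 0.09 at day 10 and -1.03 ± 0.14 at day 5, a difference of 2.43 ± 0.15.

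For 14 named genes the change in 6T-CEM differed from that in Jurkat at day 10 by the same test. Above 0 were CDHR1 (1.39 in 6T-CEM and -0.66 in Jurkat, a difference of 2.05), EOMES (a difference of 2.08), HLA-B (1.87), NLRC5 (1.58), THY1, a thymic surface glycoprotein (1.07 in 6T-CEM and -0.08 in Jurkat, 1.14), CHRNA3 (0.45 and -0.44, 0.88), C1orf21 (0.55 and -0.13, 0.67) and NOTCH3 (0.65 and -0.01, 0.65). Below 0 were CEBPE (-2.15 and -0.24, a difference of -1.91), RFX8 (-0.78 and 0.87, -1.66), TENT5C (-1.38 and -0.02, -1.37), ALDH1A2 (-1.39 and -0.32, -1.07), ITGA4 (-1.16 and -0.09, -1.07) and MYO7B (-0.91 and 0.01, -0.92). HLA-B shares sequence with other class I genes. These genes were taken for their low p in the test, so the sizes are those of the extremes.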

How the results depend on the processing

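The 2752 genes called at day 10 became 1099 with no filter on low counts and 916 with all 16 libraries in the fit, where 32.4% of the calls were higher, against 47.1%. They were 2768, 3330, 2857, 2796 and 2751 with DESeq2 size factors, the DESeq2 Wald test, the stricter filter, the replicate block and the GC offset, and 2004 to 2225 with 1 library left out. The 1 gene differing between days became 218 with the Wald test, 13 with the replicate block, 150 with all 16 libraries, 481 with the GC offset, and 1 to 1476 with a library left out. The 358 genes differing from Jurkat became 721 with the Wald test, 114 with no filter, 179 with all 16 libraries, 554 with the GC offset, 496 with the replicate block, and 109 to 529 with a library left out. The cause of these shifts was not tested. Of 300 named genes 117 fell short of the threshold under at least 1 alternative. The sign turned in 5 that had not passed: with the GC offset LCK came to -0.042, RBM48 to 0.036 and RUNX3 to -0.050, and with a library left out CD8A ran from -0.56 to 0.18, ITGAM from -0.94 to 0.051, RBM48 from -0.16 to 0.070 and RUNX3 from -0.10 to 0.11. The labels used here do not say whether replicate numbers mark pairs. Across genes, same-numbered libraries of the 2 day 10 arms correlated at 0.00605 in their residuals, and genes are not independent replicates. The second principal component carried 26.6% of the variance. It placed replicate 1 at 11.9 for sh-SH2D1A and 31.0 for sh-NC, and replicate 2 at -11.3 and -31.7. Where an arm was left with 1 library, its spread was taken from the other arms.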
